A study of Mus musculus with 18 samples.

Results

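Otx2, Pou3f1 (also called Oct6), Zic2 and Vrtn are 4 genes for DNA-binding proteins of the postimplantation epiblast, followed here among the 10965 genes of an RNA-seq series on mouse embryonic stem cells (ESCs). They were chosen by symbol with their TPM values in these same libraries known, among them the higher values in Zeb2 KO cells on day 4 (d4) and d6. Their levels and differences are therefore given as a description, without a test. Control cells (Ctrl) carried Zeb2 alleles flanked by loxP sites (Zeb2 fl/fl) and KO cells had no intact Zeb2 allele (Zeb2 -/-), and the labels give the CD1 strain for both. Cells were collected as ground-state ESCs in 2i + LIF (d0), on d4 after culture as embryoid bodies in medium with 15% serum, and on d6, after 500 nM retinoic acid in N2B27 medium from d4 onward (neural differentiation). Each genotype and day had 3 libraries, from 3 experiments that the study calls independent, and the depth was 9622622 to 15617675 reads on these genes in the 18 libraries. The methods give KO lines obtained with Cre from Zeb2 fl/fl control lines of CD1 mice, plus separately derived lines of a mixed background. The genotype and strain in the labels match the first of these sets. Which of its lines, and how many, were sequenced is not given in the sources used here. A property of a line and the effect of the genotype therefore cannot be told apart.

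The epiblast is the pluripotent tissue of the early embryo from which the germ layers arise. When ESCs leave the naive state in culture, they pass through a comparable stage in which some genes of the naive network are lost and others, such as Otx2 and Pou3f1, come on. Otx2 is a homeodomain protein that occupies enhancers of that stage and later patterns the anterior brain. Pou3f1 is a POU-domain factor of epiblast, neural and Schwann cells, Zic2 is a zinc finger factor of primed pluripotent cells and of the neural tube, and Vrtn (vertnin) is a DNA-binding protein known for its part in setting vertebra number. Zeb2 is a zinc finger and homeodomain protein, best known as a repressor, whose zinc finger clusters bind CACCT and its longer form CACCTG.

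Zeb2 itself was at 0.123 to 0.138 TPM (a level corrected for gene length and depth) in Ctrl d0, 1.23 to 1.47 in Ctrl d4 and 7.53 to 7.81 in Ctrl d6. The KO libraries held 0.0172 to 0.0274, 0.126 to 0.204 and 0.594 to 0.733 TPM on the same days, below every Ctrl library of the day. The KO and Ctrl levels of all genes also differed on average: over 10965 genes the log2 difference had a median of -0.07 (d0), -0.16 (d4) and -0.14 (d6). Rescaling the libraries by the median ratio of their genes took these medians to -0.03, 0.00 and 0.01. The differences of single genes below are on the deposited TPM scale, and are to be read against those medians.

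In the GRCm38 mouse genome (GENCODE M21 annotation), Otx2 (ENSMUSG00000021848) lies on chr14:48657677-48673819 on the minus strand, with 11 annotated transcripts of 2 to 6 exons. Zic2 (ENSMUSG00000061524) lies on the same chromosome at chr14:122475435-122479852 on the plus strand, and its relative Zic5 is 9.76 kb to its left on the other strand. Pou3f1 (ENSMUSG00000090125) is a gene of 1 exon at chr4:124656807-124660655, and Vrtn (ENSMUSG00000071235) is at chr12:84641019-84651455, both on the plus strand. Reads were 36 bases long. Of the 36-base stretches in Pou3f1 transcripts, 7.84% also occur in another gene, nearly all in the antisense gene Gm2164, which shares 330 of the 3849 exon bases. For Otx2 the share was 3.1%, with Otx2os1 on the opposite strand and Gm49154 on the same strand. The strand setting of the counting is not given in the sources used here, so reads in these shared stretches cannot be assigned, whereas none of the stretches in Zic2 and Vrtn transcripts occur elsewhere.

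The sequences next to the starts of Otx2 and Vrtn are shown because they bear on the letters that Zeb2 binds. The RefSeq promoter table (GRCm38.p6) held windows for 2 of the 4 genes, Otx2 and Vrtn. The 3 windows printed cover the 250 bases before an annotated start, given 5′ to 3′ on the strand of the gene, and capitals mark CACCT, and CACCTG where the next base makes it one, read on either strand.
Otx2, chr14:48667645-48667894, minus strand: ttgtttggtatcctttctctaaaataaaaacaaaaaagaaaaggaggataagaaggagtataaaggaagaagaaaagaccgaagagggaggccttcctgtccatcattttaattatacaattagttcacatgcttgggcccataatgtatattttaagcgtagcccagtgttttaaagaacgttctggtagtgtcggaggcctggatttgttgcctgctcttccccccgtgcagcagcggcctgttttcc
Vrtn, first start, chr12:84640769-84641018, plus strand: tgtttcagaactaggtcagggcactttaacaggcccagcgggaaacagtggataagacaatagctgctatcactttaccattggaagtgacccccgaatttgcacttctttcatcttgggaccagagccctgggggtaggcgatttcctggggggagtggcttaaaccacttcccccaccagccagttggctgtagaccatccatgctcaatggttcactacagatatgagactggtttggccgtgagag
Vrtn, second start, chr12:84642305-84642554, plus strand: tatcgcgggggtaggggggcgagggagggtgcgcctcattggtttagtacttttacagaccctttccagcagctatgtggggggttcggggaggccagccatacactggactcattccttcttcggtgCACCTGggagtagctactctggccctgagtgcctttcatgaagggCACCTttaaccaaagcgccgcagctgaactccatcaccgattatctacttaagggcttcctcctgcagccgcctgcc
Among the 4 windows of Otx2 and 3 of Vrtn, the second Vrtn start alone had a match, with 1 match to CACCTG and 1 to the shorter letters alone. CACCTG occurred in 17.2% of 32851 windows of all genes and in 16.4% of the 9167 windows of genes in the table. The shorter CACCT, contained in it, occurred in 46.0% and 44.5%. The study searched for CACCTG and CACCT as a pair at a limited distance, over a wider stretch on both sides of the start. The percentages here are for single strings, and the share of windows with such a pair was not counted. All 4 windows of Otx2 lie inside the annotated span of the gene, not before its 5′ end. A match is a string of letters and not a measured binding site, and the absence of one covers these 250 bases only.

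Otx2 had low levels in Ctrl cells throughout. The 3 Ctrl libraries were at 3.89, 3.77 and 4.20 TPM at d0, at 6.44, 5.38 and 7.94 at d4, and at 9.13, 8.19 and 10.1 at d6. The KO libraries were at 1.95, 1.10 and 2.53 TPM at d0, at 92.5, 103 and 90.8 at d4, and at 166, 153 and 164 at d6. KO cells thus held less Otx2 mRNA than Ctrl cells in 2i + LIF and far more in embryoid bodies, with no overlap between the genotypes on any day. The mean TPM was 2.13 times higher in Ctrl than in KO at d0 (3.96 ± 0.221 against 1.86 ± 0.718, SD, n = 3). It was 14.5 times higher in KO at d4 (95.6 ± 6.85 against 6.59 ± 1.29) and 17.6 times higher at d6 (161 ± 6.69 against 9.14 ± 0.964). On the log2(TPM + 1) scale, used for every log2 difference here, KO minus Ctrl was -0.82, 3.68 and 4.00 at d0, d4 and d6 (SE 0.16 each). Between d0 and d4 the mean level of Otx2 differed 51.3-fold in KO cells and 1.67-fold in Ctrl cells, and between d4 and d6 the folds were 1.68 and 1.39. The order of the 6 groups was KO d6, KO d4, Ctrl d6, Ctrl d4, Ctrl d0 and KO d0, without overlap between neighbours. The small difference between Ctrl d0 and d4, a log2 value of 0.60, turned to -0.17 after quantile normalization, so its direction depends on the scaling. The difference between Ctrl d0 and d6 went from 1.03 to 0.06. The order of the Ctrl groups is thus that of the deposited scale.

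Pou3f1 also had its lowest values in KO d0 and its highest in KO d6. Ctrl libraries were at 6.45, 4.21 and 6.17 TPM at d0, at 8.81, 8.67 and 10.0 at d4, and at 17.6, 13.5 and 13.5 at d6. In KO libraries the values were 1.55, 1.61 and 1.83 TPM at d0, 22.3, 26.4 and 31.0 at d4, and 137, 123 and 133 at d6. Again the genotypes did not overlap on any day, with Ctrl above KO at d0 and KO above Ctrl at d4 and d6. The mean was 3.38 times higher in Ctrl at d0 (5.61 ± 1.22 against 1.66 ± 0.148, SD, n = 3), from 19 to 25 reads in each KO library. In KO cells it was 2.90 times higher at d4 (26.6 ± 4.34 against 9.17 ± 0.757) and 8.80 times higher at d6 (131 ± 7.58 against 14.9 ± 2.38). KO minus Ctrl was -1.30, 1.43 and 3.06 on the log2 scale (SE 0.15 each). The step from d4 to d6 in KO cells was 4.93-fold for Pou3f1, against 1.68-fold for Otx2. The order of the groups was the same as for Otx2, and no neighbours overlapped. The Ctrl difference between d0 and d4 was 0.64 on the log2 scale and -0.03 after quantile normalization. Between d0 and d6 it was 1.27, and 0.455 after quantile normalization.

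Zic2 differed from the other genes in being well expressed in 2i + LIF. Ctrl libraries held 78.5, 64.2 and 74.3 TPM at d0, 53.0, 58.5 and 58.5 at d4, and 62.0, 63.8 and 57.0 at d6. KO libraries held 46.7, 50.9 and 50.7 TPM at d0, 82.7, 106 and 99.0 at d4, and 144, 153 and 161 at d6. The Ctrl values were lower on both later days than at d0, whereas the KO values were higher on each successive day, and on no day did the genotypes overlap. The mean was 1.46 times higher in Ctrl at d0 (72.3 ± 7.34 against 49.5 ± 2.36, SD, n = 3). It was 1.69 times higher in KO at d4 (95.8 ± 11.8 against 56.7 ± 3.19) and 2.50 times higher at d6 (152 ± 8.60 against 61.0 ± 3.56). KO minus Ctrl was -0.54, 0.74 and 1.31 on the log2 scale (SE 0.09 each). The order was KO d6, KO d4, Ctrl d0, Ctrl d6, Ctrl d4 and KO d0, and only Ctrl d6 and Ctrl d4 overlapped.

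Vrtn was close to the limit of detection in 2i + LIF and had its highest level in KO d4. Ctrl libraries held 1.26, 0.394 and 0.614 TPM at d0, 3.34, 5.92 and 4.96 at d4, and 2.16, 1.22 and 2.66 at d6. KO libraries held 2.06, 2.37 and 1.07 TPM at d0, 58.5, 78.1 and 69.2 at d4, and 66.7, 50.6 and 56.8 at d6. At d0 the genotypes overlapped, on 4 to 18 reads in Ctrl and 10 to 35 in KO libraries, and at d4 and d6 each KO library was above each Ctrl library. The mean in KO was 14.5 times that in Ctrl at d4 (68.6 ± 9.83 against 4.74 ± 1.31, SD, n = 3) and 28.8 times at d6 (58.0 ± 8.15 against 2.01 ± 0.728). KO minus Ctrl was 0.69, 3.62 and 4.31 on the log2 scale (SE 0.24 each). In Ctrl cells the d4 libraries lay above those of d0 and d6. The order was KO d4, KO d6, Ctrl d4, Ctrl d6, KO d0 and Ctrl d0. KO d4 overlapped KO d6, KO d0 overlapped both Ctrl d6 and Ctrl d0, and Ctrl d4 stood clear of its neighbours. The log2 difference between Ctrl d6 and d0, 0.78, turned to -0.26 after quantile normalization.

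**Figure D1:**
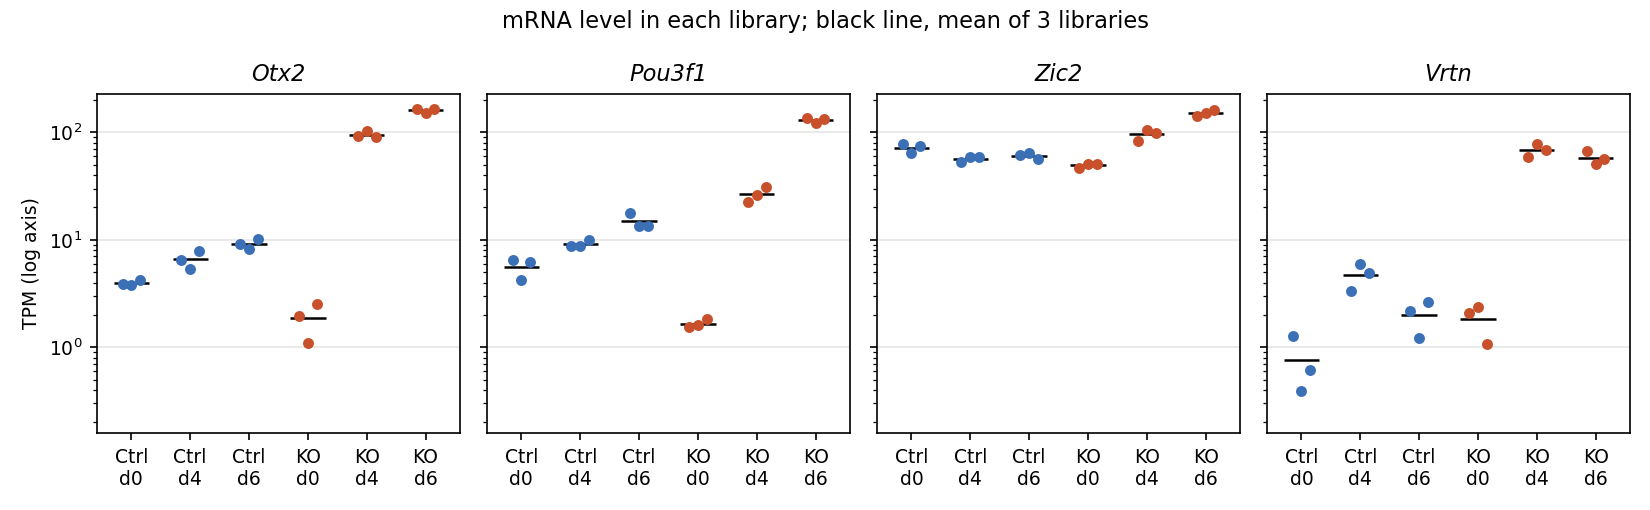
TPM (log axis) of Otx2, Pou3f1, Zic2 and Vrtn in each of the 18 libraries, by genotype and day, with Ctrl in blue, KO in red and a black line at the mean of 3 libraries. KO d4 and d6 libraries stand above all Ctrl libraries for each gene, for Otx2 at 90.8 to 166 TPM against at most 10.1, and for Zic2 at 82.7 to 161 against at most 78.5.

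At d0, 3 of the 4 genes had every KO library below every Ctrl library, a pattern seen in 31.5% of all 10965 genes. At d4 and at d6 each of the 4 had every KO library above every Ctrl library, as did 20% of all genes at d4 and 22.7% at d6. These values were known when the genes were chosen, so nothing is read from the counts. Their log2 differences had a median of -0.68 (d0), 2.52 (d4) and 3.53 (d6). The summed TPM of the 4 genes was 82.7 in Ctrl d0, 77.2 in Ctrl d4 and 87.0 in Ctrl d6, most of it Zic2. In KO cells the sum was 54.8, 287 and 502 TPM on the same days. Ordered by the size of the difference among 10965 genes, Vrtn, Otx2 and Pou3f1 ranked 3, 6 and 21 from the top at d6, and Zic2 ranked 315. At d4 Otx2 and Vrtn ranked 4 and 5, Pou3f1 103 and Zic2 514. In bulk RNA of embryoid bodies, a difference in the number of cells that express a gene and a difference in the mRNA per cell cannot be told apart.

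The 20 genes nearest to each of the 4 on its chromosome gave a local reference. Around Vrtn they had a median KO minus Ctrl of 0.55 at d0, close to the 0.69 of Vrtn, and 0.00 and -0.09 at d4 and d6, where Vrtn was at 3.62 and 4.31. The other 439 genes of chromosome 12 had a median of 0.36 at d0. Around Zic2 the median was -0.64 at d0, beside -0.54 for Zic2, and 0.08 and -0.08 at d4 and d6. The other 387 genes of chromosome 14 had a median of -0.13 at d0. So the d0 values of Vrtn and Zic2 were of the size of those of their neighbours, and the d4 and d6 values were not. The d0 values of Otx2 and Pou3f1, -0.82 and -1.30, stood beside neighbour medians of -0.04 and -0.09. The part of any regional difference in the d0 values was not tested.

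Likeness of profile was measured as the root-mean-square difference, over the 18 libraries, between log2(TPM + 1) profiles that were each centred on their own mean. By this measure the 4 genes closest to Otx2 were Enpp2 (0.42), Trim67 (0.68), Vrtn (0.74) and Dnmt3b (0.76). Vrtn was closest to Enpp2 (0.62), Trim67 (0.68), Slc7a7 (0.71) and Otx2 (0.74). Otx2 and Vrtn thus shared Enpp2 and Trim67 among their closest genes and were themselves among each other's. Pou3f1 had other neighbours, Tmem54 (0.50), Sycp3 (0.51), Epcam (0.52), Bst2 (0.54) and Foxj1 (0.56), and Otx2 stood at 0.85 from it. Zic2, whose range was narrower, was closest to Steap2 (0.18), Pfkm (0.19), Ftl1 (0.21), Sec14l4 (0.22) and Ccrn4l (0.22), and lay 1.29 to 1.75 from the other 3 genes. Over all genes the median distance from Zic2 was 0.73, so the other 3 genes lay farther from it than most genes did. From Otx2, Pou3f1 and Vrtn the medians over all genes were 2.2, 1.8 and 2.2. The distances depend on the size of the changes as well as on their course. They are descriptions over libraries that share genotype and day.

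Some relatives of the same families had their highest level in Ctrl d6, where Pou3f1 and Zic2 were below their KO level. Pou3f2 and Pou3f3 are class III POU factors of neural progenitors, like Pou3f1. Pou3f2 was at 1.25 ± 0.252 TPM in Ctrl d4, 60.2 ± 6.65 in Ctrl d6 and 0.254 ± 0.177 in KO d6 (SD, n = 3), a KO minus Ctrl difference of -5.61 at d6 (SE 0.16, limma adjusted p = 9.26e-14). Pou3f3 was at 8.65 ± 1.73 TPM in Ctrl d6 and 0.361 ± 0.104 in KO d6, a difference of -2.81 (SE 0.19, limma adjusted p = 3.66e-09). Pou3f1 therefore made up 17.7% of the summed TPM of these 3 genes in Ctrl d6 (16.8% to 18.5% over libraries) and 99.5% in KO d6 (99.5% to 99.7%). At d0 its share was 83.9% in Ctrl and 61.9% in KO, of sums of only 6.64 and 2.69 TPM. The KO d0 libraries held 19 to 25 reads of Pou3f1, 3 to 7 of Pou3f2 and 11 to 22 of Pou3f3, so these shares are uncertain. At d4 the share of Pou3f1 was 80.6% in Ctrl and 97.2% in KO. The sum itself was 83.7 TPM in Ctrl d6 and 132 TPM in KO d6.

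Among the Zic genes, Zic1, a gene of neural progenitors and cerebellum, was at 31.6 ± 10.2 TPM in Ctrl d6 and 0.252 ± 0.133 in KO d6, a difference of -4.66 (SE 0.18, limma adjusted p = 4.19e-12). Zic5, next to Zic2, was lower in KO at d0 and higher at d4 and d6, with differences of -0.59, 1.07 and 1.67 (SE 0.10 each), with limma adjusted p of 0.000328, 5.18e-07 and 1.34e-09. Zic2 and Zic5 thus took the same sign on each day. Zic1, Zic2 and Zic5 together were at 93.6, 66.7 and 104 TPM in Ctrl d0, d4 and d6 and at 63.3, 116 and 190.3 in KO. Zic2 made up 59.0% of this sum in Ctrl d6 (55.1% to 62.4% over libraries) and 80.1% in KO d6 (79.8% to 80.4%). Of 18 listed relatives of the 4 genes, 9 were in the table, and the others, Otx1 and Zic4 among them, were not analysed here. At d6, 4 of the 9 were higher in KO and 4 lower, beside 17.9% and 34.3% of all genes. Gsc, a homeodomain relative of Otx2, was at 1.13 ± 0.419 TPM in Ctrl d6 and 2.10 ± 1.17 in KO d6 and was not called.

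**Figure D2:**
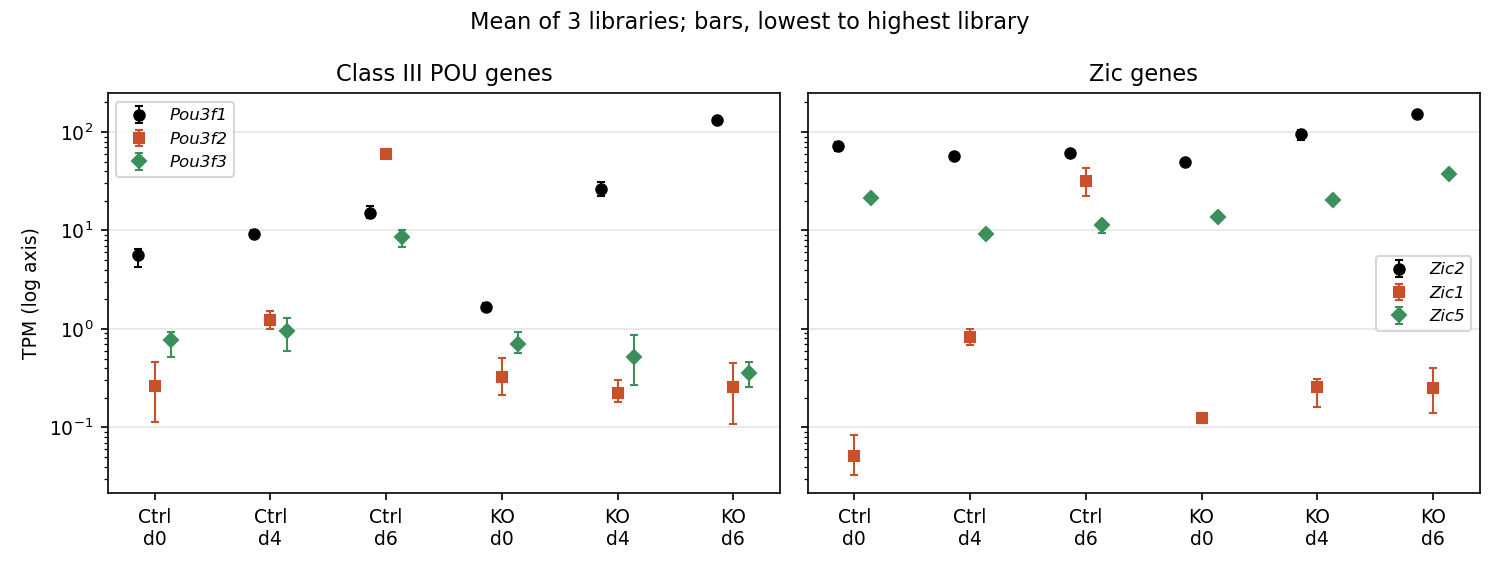
TPM (log axis) of the class III POU genes and of Zic1, Zic2 and Zic5 in the 6 groups, as the mean of 3 libraries with bars from the lowest to the highest library. In Ctrl d6 Pou3f2 is above Pou3f1 (60.2 against 14.9 TPM) and Zic1 is present at 31.6, whereas in KO d6 Pou3f1 and Zic2 are the highest of the genes plotted at 131 and 152.

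To place the 4 genes, 18 other genes known from the postimplantation epiblast or its culture equivalents were followed, all of them in the table. The calls are those of limma at an adjusted p below 0.01 (Benjamini-Hochberg, 10965 genes). At d0, 2 of the 18 were higher in KO and 7 lower, beside 10.6% and 16.4% of all genes. At d4, 10 were higher and 0 lower, beside 12.7% and 32.7% of all genes. At d6, 11 were higher and 4 lower, beside 17.9% and 34.3%. The median difference of the 18 was -0.36, 0.85 and 1.00, smaller at d4 and d6 than that of the 4 chosen genes. After median-ratio rescaling the calls over all genes moved from 1397 higher and 3591 lower to 2300 and 2335 at d4, and from 1967 and 3764 to 2804 and 2811 at d6. The list was drawn up with earlier results of these data known, so its direction is not independent evidence.

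Of the signalling genes in the list, Fgf5, a ligand that marks the postimplantation epiblast, was at 6.90 ± 0.665 TPM in Ctrl d4 and 2.44 ± 0.979 in Ctrl d6, and at 18.3 ± 3.27 and 99.0 ± 14.5 in KO (SD, n = 3). It was higher in KO by 1.28 at d4 and 4.89 at d6 (SE 0.21, limma adjusted p = 8.01e-05 and 1.13e-11). Fgf15, another ligand, was at 1.90 ± 0.161 in Ctrl d4 and 45.5 ± 11.6 in KO d4, higher by 3.97 (SE 0.26, limma adjusted p = 4.18e-09), whereas at d6 it was at 27.6 ± 7.35 and 38.2 ± 9.76 and was not called. Lef1, a nuclear effector of Wnt signalling, was lower in KO at d0 and higher at d6, with differences of -1.65 and 1.18 (SE 0.17, limma adjusted p = 2.65e-06 and 1.90e-05). Sfrp2, a secreted Wnt modulator, was at 94.1 ± 15.5 TPM in Ctrl d6 and 65.6 ± 7.21 in KO d6, and its adjusted p of 0.009996 in limma was lost in 16 of the other settings.

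Among enzymes and chromatin genes, the de novo DNA methyltransferase Dnmt3b was the list gene nearest to Otx2 in profile. It was at 41.5 ± 4.51, 40.6 ± 6.89 and 52.7 ± 1.70 TPM in Ctrl d0, d4 and d6 and at 33.4 ± 1.30, 345 ± 78.4 and 448 ± 53.7 in KO. The difference was 3.05 at d4 and 3.06 at d6 (SE 0.15, limma adjusted p = 1.62e-10 and 5.37e-11). For Otx2 and Vrtn it was 3.68 and 3.62 at d4 and 4.00 and 4.31 at d6. Dnmt3a, the other de novo enzyme, was higher in KO by 0.79 and 0.82 (SE 0.14, limma adjusted p = 0.000149 and 7.35e-05). Utf1, a chromatin protein of pluripotent cells, was at 175 ± 16.8 TPM in Ctrl d6 and 1501 ± 267 in KO d6, 8.57 times higher. The kinase Pim2 was at 8.66 ± 1.16 TPM in Ctrl d6 and at 104 ± 18.3 in KO d6. The tight junction protein Cldn6 was called higher in KO at d0, d4 and d6, though the d0 call was lost in 8 settings.

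Among the transcription factors of the list, Foxd3, a forkhead factor of pluripotent and neural crest cells, was not called at d0 (40.9 ± 10.4 and 40.7 ± 5.87 TPM in Ctrl and KO). At d6 it was at 2.38 ± 0.0130 in Ctrl and 37.3 ± 3.14 in KO, a difference of 3.50 (SE 0.21, limma adjusted p = 6.05e-10). Between d0 and d6 of KO cells Foxd3 was not called, whereas the KO levels of Otx2 and Pou3f1 at d6 were 86.4 and 78.9 times those at d0. Grhl2, an epithelial factor, was higher in KO by 1.68 and 1.71 at d4 and d6 (SE 0.14, limma adjusted p = 1.16e-07 and 4.69e-08). Sox3, a SoxB1 factor of epiblast and neural progenitors, was lower in KO at d6, at 56.0 ± 15.8 against 157 ± 38.7 TPM (limma adjusted p = 7.11e-05). Sall2, a zinc finger factor, was also lower at d6, at 38.9 ± 3.44 against 83.5 ± 4.38 TPM (limma adjusted p = 1.44e-05), and so was Tead2, with a difference of -0.39 (SE 0.07). Etv4 and Tcf15 were not called at d4 or d6.

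**Figure D3:**
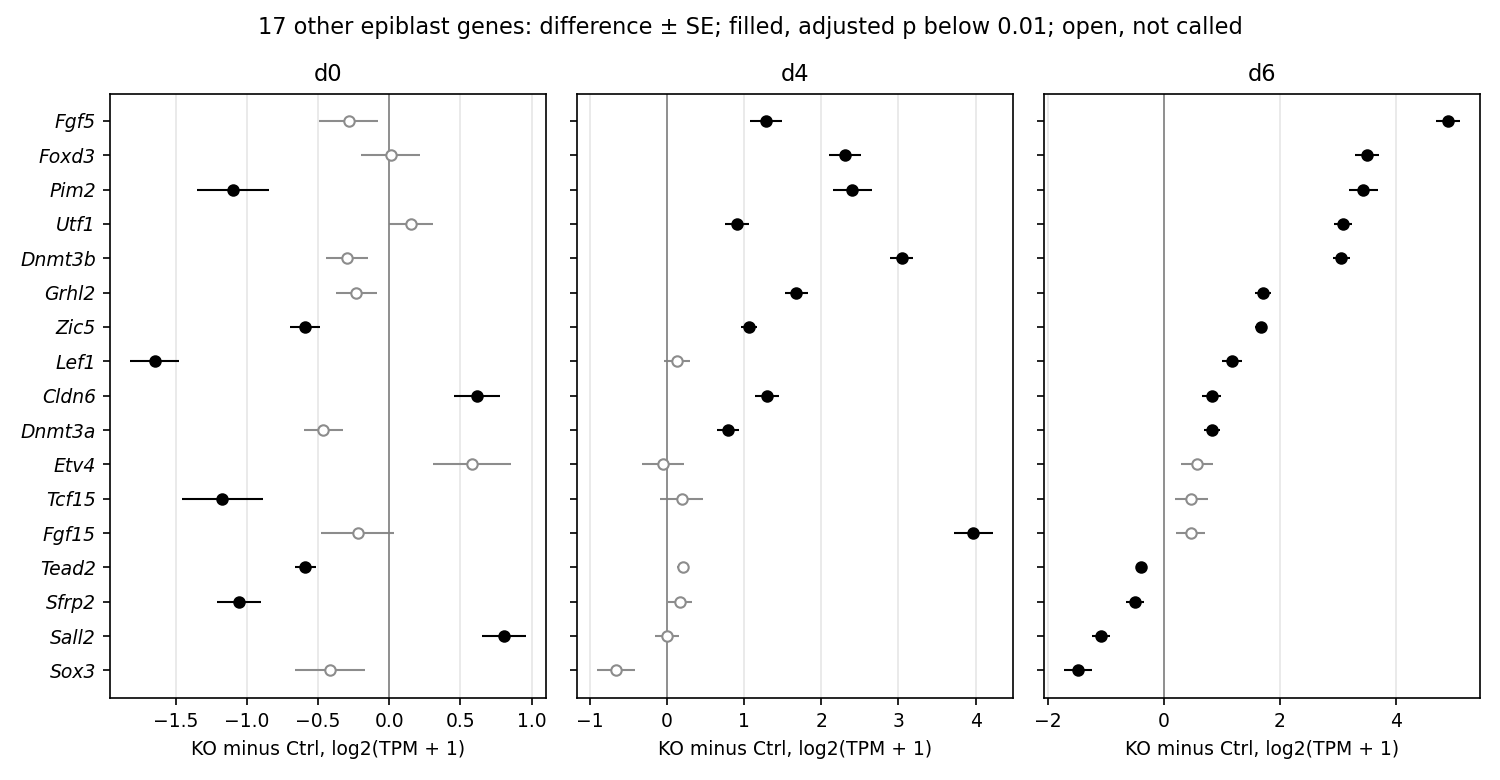
KO minus Ctrl difference in log2(TPM + 1) with its SE for 17 other epiblast genes at d0, d4 and d6, ordered by the d6 value, with filled points for an adjusted p below 0.01 and a separate horizontal scale for each day. At d6 Fgf5 is the highest at 4.89 and Sox3 the lowest at -1.48.

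The list was also compared between days within each genotype. From d0 to d6, 17 of the 18 genes rose and 0 fell in KO, beside 40.3% and 27.4% of all genes, with a median of 3.24. In Ctrl, 11 rose and 3 fell, among them Zic5 and Foxd3, beside 45.8% and 25.8% of all genes, with a median of 1.06. The difference between these changes was tested for each gene: 11 of 18 changed more upward in KO and 1 (Sall2) more downward, beside 17.8% and 25.9% of all genes. For the 4 chosen genes the median change from d0 to d6 was 5.02 in KO and 0.90 in Ctrl, and for all genes 0.17 and 0.26. The comparisons with d0 and with Ctrl share libraries, so their counts are not independent of each other.

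Genes of other states were followed beside them. Of 12 naive pluripotency genes, all 12 fell from d0 to d6 in Ctrl and in KO, with medians of -3.89 and -3.45, beside 25.8% and 27.4% of all genes that fell. At d6, 6 of them were higher and 1 (Klf4) lower in KO, where 17.9% of all genes were higher and 34.3% lower. The size of the fall in KO differed between genes. Klf4 was at 192 ± 18.8 TPM in KO d0 and 5.81 ± 0.810 in KO d6. Fgf4, 1 of the 6 higher in KO, was at 264 ± 25.9 and 174 ± 45.4 TPM, against 15.1 ± 1.19 in Ctrl d6. Of 8 core pluripotency genes, 5 were higher in KO at d6 (17.9% of all genes) and 0 lower, among them Pou5f1 (Oct4), a POU relative of Pou3f1, at 652 ± 81.7 TPM against 101 ± 11.3 in Ctrl (limma adjusted p = 3.82e-12). Of 8 neuroectoderm genes, 7 were lower in KO at d6 (34.3% of all genes), and Pax6, a factor of neural progenitors, was at 0.825 ± 0.109 TPM against 34.6 ± 0.697. The labels call the d6 cells of both genotypes neural progenitors. The neuroectoderm genes together were at 341 to 380 TPM in Ctrl d6 and 68.4 to 81.2 in KO d6. Of 11 visceral endoderm genes, 10 were lower in KO at d6 (34.3% of all genes), with sums of 230 to 382 TPM in Ctrl and 63.8 to 101 in KO. Otx2 is also expressed in visceral endoderm and Zic2 in neuroectoderm. Both were higher in KO than in Ctrl at d6, where the summed levels of these lists were lower. Within KO, Otx2 and Zic2 were also higher at d6 than at d0. All 11 visceral endoderm genes rose between these days in KO, beside 40.3% of all genes. Of the 8 neuroectoderm genes, 3 rose and 2 fell, beside 40.3% and 27.4%. Of 5 mesoderm genes, 4 were lower in KO at d6 (34.3% of all genes) and 1, Eomes, was higher (17.9%). Their sums were 156 to 209 TPM in Ctrl and 17.9 to 23.6 in KO. Meox1 alone was at 129 to 182 TPM in Ctrl d6 and 0.643 to 0.848 in KO d6. The lists named 12 neuroectoderm, 15 visceral endoderm and 11 mesoderm genes, and those not in the table were not analysed here. The part of the makeup of the embryoid bodies in the levels of Otx2, Pou3f1, Zic2 and Vrtn was not tested.

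**Figure D4:**
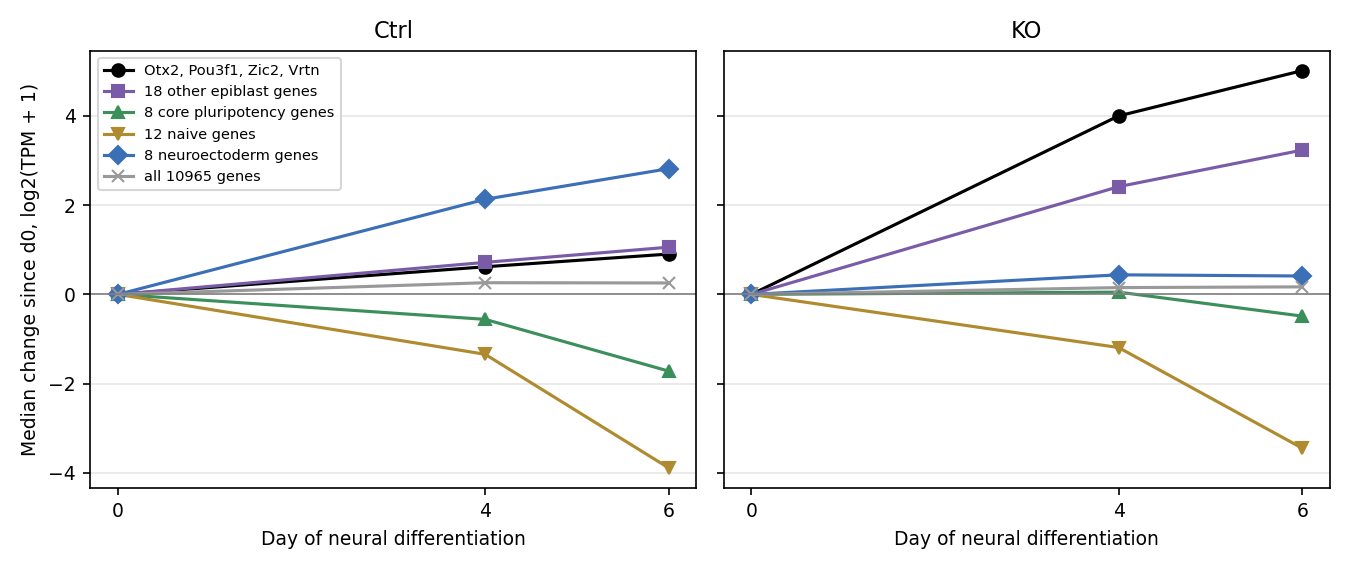
Median change since d0 in log2(TPM + 1) of Otx2, Pou3f1, Zic2 and Vrtn, of 4 gene lists and of all 10965 genes, by day, in Ctrl (left) and KO (right). By d6 the 4 chosen genes are at 0.90 in Ctrl and 5.02 in KO, and the naive genes at -3.89 and -3.45.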

How the data were processed

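RNA-seq libraries of 18 samples, 3 per genotype and day, were analysed from the table the authors deposited. Per the study's methods, the authors mapped single reads of 36 bases to GRCm38 with TopHat2 2.0.13, counted them with featureCounts 1.4.6 and deposited TPM after removing short noncoding, lowly expressed and little-varying genes. A gene high in few groups passes such a filter, and all 4 members passed. Vrtn passed through KO d4 and d6, at 50.6 to 78.1 TPM, and had at most 5.92 TPM in any other library. The score columns that the authors deposited (variance, variance over mean, variability) were not used. The table had 11046 rows. The 81 repeated rows, with identical TPM, were dropped, leaving 10965 genes.

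Whole reads (tolerance 1e-06) were recovered from the TPM of each of the 10965 genes. The TPM carry 1 read added per gene. Genes were fitted with limma 3.58.1 in R 4.3.3 on log2(TPM + 1), which understates the change of low genes, with 6 group means over all 18 libraries and an eBayes trend, and Benjamini-Hochberg adjustment over all genes. The members have no p. Members and lists were chosen with earlier results of these data known. The named genes were the members, the list genes, the 5 closest profiles, neighbouring genes and Zeb2. Single values of 2 of these genes are left out, while the list counts cover them. The steps were tested on simulated data with few changed genes and a fixed spread, a simpler setting than these data. No result here rests on that test. Alternatives were pseudocounts 0.1 and 5, a mean TPM of at least 10, median-ratio rescaling, quantile normalization, removal of chromosome medians, voom on the recovered reads, a replicate block, an added log2 threshold of 1 and leaving out each library. Python 3.11.15 with numpy 2.4.6, pandas 2.3.3 and matplotlib 3.10.9 served for the rest.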

Additional observations from a re-analysis of the deposited data

Results flagged for a closer look

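Zic2 was singled out because its libraries moved in opposite directions in the genotypes, with all Ctrl libraries at d4 and d6 below those at d0 and all KO libraries above. The margin in Ctrl was narrow, with 63.85 TPM in the highest d6 library against 64.22 in the lowest d0 library. Zic5 and Pim2, of the 18 other epiblast genes, had the same pattern. The change of Zic2 from d0 to d4 was higher in KO than in Ctrl by 1.28 on the log2(TPM + 1) scale. From d0 to d6 it was higher by 1.84, and this difference was not tested.

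Among the 18 other epiblast genes, the change from d0 to d6 differed between the genotypes by the interaction term of limma (adjusted p below 0.01) for those that follow. KO minus Ctrl was 5.17 for Fgf5, 4.53 for Pim2, 3.49 for Foxd3, 3.36 for Dnmt3b, 2.93 for Utf1 and 2.83 for Lef1. It was 2.25 for Zic5, 1.94 for Grhl2, 1.65 for Tcf15 and 1.29 for Dnmt3a, and -1.90 for Sall2. Tcf15 held only 1 to 3 reads in the KO d0 libraries, where KO minus Ctrl was -1.17. That d0 call was lost in 7 settings, and Tcf15 was not called at d4 or d6. The adjusted p ranged from 8.42e-10 for Fgf5 to 0.00238 for Tcf15.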

How the results depend on the processing

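The KO minus Ctrl difference of each member kept its sign on each day under the 8 alternatives and without each of the 18 libraries. At d6 it ranged from 3.55 to 4.55 for Otx2, 2.78 to 3.52 for Pou3f1, 1.26 to 1.47 for Zic2 and 3.17 to 5.06 for Vrtn. At d0 Vrtn ranged from 0.25 to 1.49. The median of the members at d4 was 2.03 with pseudocount 5, 2.87 with quantile normalization and 2.82 with voom. At d6 it was 2.97 with pseudocount 5, 3.68 with median-ratio rescaling, 4.04 with quantile normalization, 3.68 with chromosome medians removed and 3.76 with voom. The 2 epiblast genes higher in KO at d0 (Sall2 and Cldn6) were 0 with pseudocount 5 and with an added log2 threshold of 1, 1 with quantile normalization or voom, and 1 to 2 when single libraries were left out, with 1 left without Ctrl d0 library 1 or 3 or any 1 of the KO d0 libraries. With that threshold the genes lower in KO were 4 at d0 and 2 at d6. The other 221 of 240 values stayed within the replicate spread or within 1.5 times the count. The cause of these shifts was not tested. A replicate block, with the replicate number as a block, left the d4 and d6 medians of the members at 2.52 and 3.53 and the epiblast genes higher in KO at 10 and 11. Deviations of same-numbered libraries of a day correlated at -0.08 to 0.23 over 9 pairs, 6 of them (all of those numbered 1 and 2) above 0.1, and those of other numbers at -0.22 to 0.08 over 18 pairs. By this measure 14 of 18 libraries were closest to their own number, a hint from the data and not from the labels. Pairing was taken as given only with every pair above 0.1, so the fit without the block was kept. Among the members Vrtn at d0 had the fewest reads, 4 to 35 per library.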
